A study of Harpegnathos saltator with 36 samples.

Results

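The brains of gamergates and revertants of the ant Harpegnathos saltator were compared by RNA sequencing. Gamergates are workers that became the reproductive egg layers of a colony without a queen, and revertants are former gamergates that lost this status after they were placed among nestmates of an established reproductive colony. The comparison holds 8 libraries, 4 from gamergates and 4 from revertants, of 24 libraries with a table of counts and 36 in the series, and all genes in the table were examined. The libraries were chosen by caste as the labels give it, and no measured value entered the choice.

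All ants were 6 months old, and each library came from the central brain, without optic lobes, of 1 ant. Gamergate status was scored after 3 months in the transition colony. Revertants were gamergates that had been isolated for 4 weeks and then spent 2 months in the reversion colony, where they were policed. The 4 workers used beside them came from the transition type of colony, as gamergates did, and revertants from the reversion type. How many colonies of each type gave the sequenced ants is not stated in the sources used here. Caste, colony and isolation cannot be told apart in this comparison.

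The ant brain makes peptide hormones, among them insulin-like peptides and corazonin, which reach other organs through the haemolymph. Juvenile hormone, ecdysteroids, insulin and biogenic amines are the signals most often tied to reproductive state in social insects. Vitellogenin, the yolk precursor, and the storage proteins called hexamerins or arylphorins are made mainly by the fat body and circulate in the haemolymph, which bathes the brain.

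Every gamergate library (1660576 to 1799316 counts, median 1760205) was smaller than every revertant library (4115800 to 12917125 counts, median 6696230). Reads were counted for 10239 to 10390 genes in gamergates and 10878 to 11337 in revertants, and 3 counts, taken as the floor, were 1.67 to 1.81 CPM in gamergates and 0.232 to 0.729 CPM in revertants. The 4 worker brains fall on both sides of the gap. Worker libraries 2 and 4 (1517625 and 1339043 counts) have the size of the gamergate libraries and worker libraries 1 and 3 (4926716 and 3958441 counts) that of the revertant libraries. Workers therefore give a difference between small and large libraries that shares no library with the difference between gamergates and revertants. Levels are log2 CPM (counts scaled to a common library total after TMM scaling, with a prior count of 2), and 1 unit is a doubling. Fitted log2 fold changes are given ± an approximate standard error, the absolute change over the square root of the test's F value.

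Of 8987 genes tested in the 8 libraries by edgeR's quasi-likelihood test, 2466 were higher and 2691 lower in gamergates at an adjusted p under 0.05, 57.4% of all genes tested (27.4% higher and 29.9% lower). Gamergates and revertants did not overlap in 4560 genes (50.7%). Scaling by library size alone put 64.1% of the calls on the higher side, against 47.8% with TMM, and moved the median log2 fold change of all genes to 0.17, against 0.0049. Worker libraries 2 and 4 were set against worker libraries 1 and 3, from ants of the same caste and type of colony. In the smaller libraries 1905 genes were higher and 2159 lower, 45% of 9026 genes tested. With library size alone these were 3164 and 1380. What else separates the worker libraries besides their size is not given in the sources used here.

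Most genes differed between the worker libraries in the direction in which they differed between the castes. Across the 8987 genes, the gamergate minus revertant difference in mean log2 CPM and the difference of worker libraries 2 and 4 minus worker libraries 1 and 3 had a Pearson r of 0.625 and a Spearman rho of 0.748, and 82.0% of the genes had the same sign in both. These are descriptions across genes, which are not independent replicates, and the 12 libraries were scaled together. With reads drawn at random down to the smallest library total, the Pearson r was 0.627. The 8-library fit of these thinned counts called 2060 genes higher and 2118 lower. What else goes with the size classes besides the number of reads was not tested. Among the 2466 genes higher in gamergates, 2258 (91.6%) were on average also higher in worker libraries 2 and 4, 985 (39.9%) by at least as much, and 1404 (56.9%) were called in that direction between the worker libraries, where 21.1% of all genes were. Among the 2691 lower genes these were 2523 (93.8%), 1168 (43.4%) and 1707 (63.4%), beside 23.9% of all genes. Only 19 of the higher and 24 of the lower genes were called in the opposite direction between worker libraries. The median caste difference of the higher genes was 0.56 and their median worker difference 0.50, and in the lower genes the medians were −0.67 and −0.60.

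**Figure D1:**
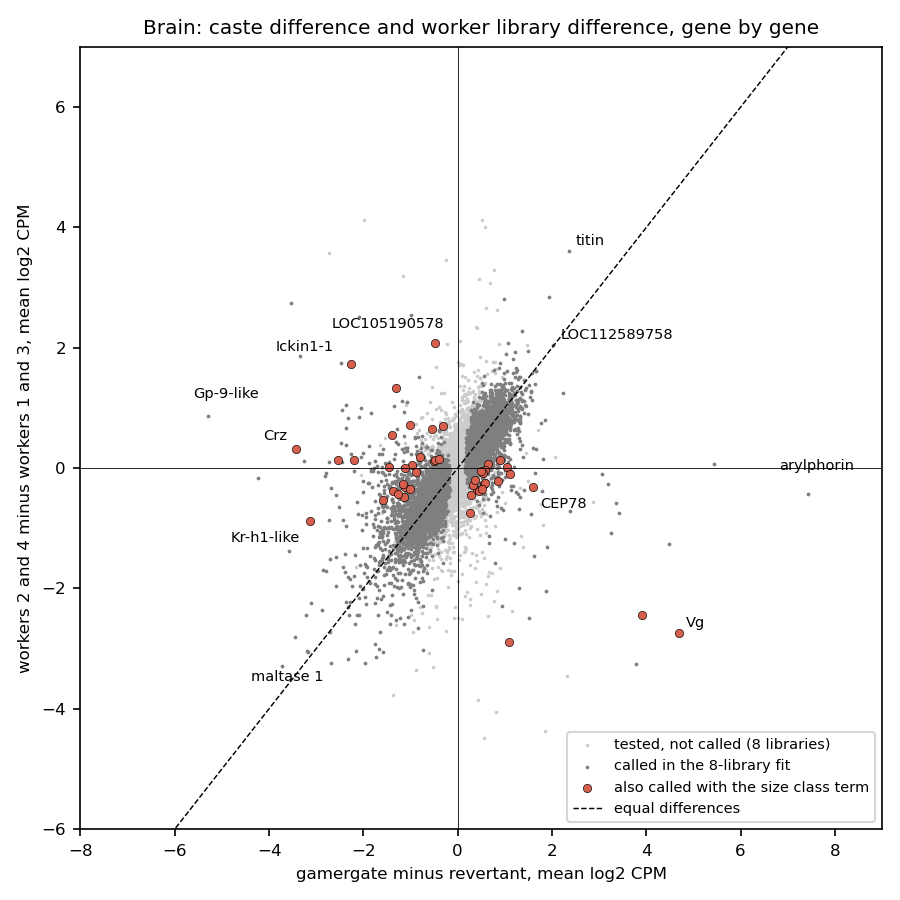
Each point is 1 of 8987 genes, with the gamergate minus revertant difference in mean log2 CPM on the x axis and the difference of worker libraries 2 and 4 minus worker libraries 1 and 3 on the y axis. Most genes called in the 8-library fit (darker grey) lie near the line of equal differences, and the 47 genes also called with the library size class in the fit (red) lie mostly off that line, among them Vg, Crz and LOC105190578.

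A fit of all 12 brain libraries had the size class (over or under 3500000 counts) as a term. That fit takes the difference between size classes from the workers and assumes that this difference is the same in every caste. In it 41 genes were called higher and 32 called lower in gamergates, 0.798% of 9148 genes tested (0.448% higher and 0.35% lower), and 1508 genes had an unadjusted p under 0.05. Scaled by library size alone, the counts were 39 and 97. The call in this fit and in the 8-library fit, in the same direction, was shared by 47 genes, of which 21 were higher and 26 lower in gamergates. Both fits use the same 8 libraries, so the count describes the genes that kept their call and is no second test of them. Between gamergates and worker libraries 2 and 4, 40 of the 41 higher and 29 of the 32 lower genes were called the same way. Of all genes tested there, 2.51% were called higher and 2.11% lower. Between revertants and worker libraries 1 and 3, none was called in the matching direction, where 0.0103% of all genes tested were called. Without worker library 2 the fit with the size term called 0 genes higher and 2 lower, and its counts ranged up to 84 and 81 without revertant library 1. The counts were 13 and 9 without worker library 1, 8 and 6 without worker library 3, 10 and 18 without worker library 4, 16 and 13 without gamergate library 1, and 27 and 20 without gamergate library 3, and 55 genes were lower without revertant library 4.

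The 21 genes called higher in both fits included a yolk protein, enzymes of purine metabolism and proteins of the centrosome and of DNA replication. Vitellogenin (Vg, LOC105181726), the yolk precursor, was at 14.97, 13.92, 14.26 and 15.90 log2 CPM in gamergates, 8.91, 11.62, 10.18 and 9.57 in revertants, and 10.69, 8.89, 11.27 and 7.57 in worker libraries 1 to 4. All 4 gamergate brains lay above every other brain, and among workers the smaller libraries held less of it, the reverse of the order between gamergates and revertants. Its log2 fold change was 4.54 ± 0.64 (adjusted p = 0.000151, edgeR quasi-likelihood test) in the 8 libraries and 7.16 ± 1.07 (adjusted p = 0.00822) with the size term. Vg reads made up 1.65% to 6.26% of all counts in gamergate brains and 0.0433% to 0.289% in revertant brains.

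Centrosomal protein of 78 kDa (CEP78, LOC105188568), a component of centrioles in mammals, varied little among gamergates, at 10.98, 10.98, 10.97 and 10.89 log2 CPM, against 9.84, 9.10, 9.48 and 8.99 in revertants. Workers, at 9.62 to 10.13, lay below all gamergates and overlapped the highest revertant. In the fits the log2 change was 1.57 ± 0.16 (adjusted p = 1.91e-05, edgeR) and 1.87 ± 0.26 (adjusted p = 0.00754) with the size term. Replication factor C subunit 1 (RFC1, LOC105188755), the large subunit of the complex that loads the sliding clamp onto DNA, was at 7.06, 7.22, 7.13 and 7.19 in gamergates, 5.89, 6.15, 6.19 and 6.20 in revertants and 6.40 to 6.58 in workers. For RFC1, workers of both library sizes fell between the castes. Its log2 fold change was nearly the same in both fits, at 1.05 (adjusted p = 5.13e-06) and 1.03 (adjusted p = 0.00754, edgeR).

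Protein lethal(2)essential for life (LOC105180829), a small heat shock protein in Drosophila, was at 6.29, 6.20, 6.52 and 6.37 log2 CPM in gamergates and 5.19, 5.08, 5.28 and 5.39 in revertants. Workers, at 5.36 to 5.92, lay below all gamergates and reached into the range of revertants, and the log2 fold change was 1.14 ± 0.10 (adjusted p = 7.41e-06, edgeR) and 1.24 (adjusted p = 0.0244) with the size term. The tyrosine-protein kinase hopscotch (LOC105190877), the Janus kinase of Drosophila, was at 7.02 to 7.17 in gamergates, 6.52 to 6.56 in revertants and 6.43 to 6.74 in workers. This amounted to a log2 fold change of 0.57 ± 0.07 (adjusted p = 3.95e-05, edgeR) and 0.82 ± 0.11 (adjusted p = 0.00754) with the size term, and the worker libraries overlapped revertants but not gamergates.

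PURH (LOC105185329), which carries out the last steps of purine synthesis, had log2 fold changes of 0.89 in the 8 libraries and 1.11 with the size term, and adenosine kinase 2 (LOC105189575), which returns adenosine to AMP, had 0.90 and 0.75. Cytoplasmic aconitate hydratase (LOC105188943), an enzyme of citrate metabolism that also binds iron-responsive RNA elements in vertebrates, had 0.57 and 0.81. The membrane peptidase neprilysin-4 (LOC105191206) had 0.45 and 0.83, the sulfate anion transporter LOC105190525 0.53 and 0.87, the splicing and transcription factor Bx42 (LOC105192234) 0.42 and 0.78, and LOC105182643, for which no full name was at hand, 0.27 and 1.01. All were higher in gamergates at an adjusted p under 0.05 in both fits of edgeR.

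Smaller increases were called for centrosomin (LOC105186465), a protein of the centrosome, at 0.65 in the 8 libraries and 0.58 with the size term, for ubinuclein-1 (LOC105183500, 0.50 and 0.53), which belongs to a chaperone complex for histones, for KAT8 regulatory NSL complex subunit 1 (LOC105191192, 0.37 and 0.56), part of a histone acetylating complex, for acidic leucine-rich nuclear phosphoprotein 32 (LOC105185488, 0.55 and 0.63) and for a homologue of rapsyn (LOC105187962, 0.59 and 0.62), which clusters acetylcholine receptors at vertebrate muscle synapses. Elongation factor 1-alpha (LOC105189136), which brings tRNA to the ribosome, had 0.33 and 0.61. Modular serine protease (LOC105190946) had 1.25 and 4.30, but its lowest gamergate (2.64 log2 CPM) lay below its highest revertant (3.40). Retinol dehydrogenase 12 (LOC105188653) had 13 to 46 counts in gamergate libraries, 1 to 7 in revertant libraries and 54, 0, 0 and 0 in worker libraries 3, 1, 2 and 4, so its fitted fold change with the size term has no fixed size.

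The 26 genes called lower in both fits included precursors of peptide hormones, a homologue of a juvenile hormone response gene and a calcium channel of synapses. Pro-corazonin (Crz, LOC105191954), the precursor of a peptide hormone that in this species is tied to worker behaviour, had 3 to 22 counts in gamergate brains and 323 to 776 in revertant brains, and the worker libraries of both sizes lay with the revertants. Between the castes the log2 fold change was −3.17 (adjusted p = 3.09e-05, edgeR) in the 8 libraries and −3.53 ± 0.50 (adjusted p = 0.00754) with the size term, and the worker libraries differed by 0.39, which was not called. CAPA peptides-like (LOC105187972), the precursor of peptides that act on the Malpighian tubules of insects, was at 5.31, 5.59, 5.34 and 5.38 log2 CPM in gamergates, against 6.82, 7.14, 7.18 and 6.34 in revertants and 6.24 to 6.87 in workers. All gamergates lay below all other brains, and the log2 fold change was −1.51 ± 0.18 (adjusted p = 4.5e-05, edgeR) and −1.57 ± 0.31 (adjusted p = 0.0341) with the size term.

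Krueppel homolog 1-like (LOC112589664), named for the transcription factor that juvenile hormone induces in insects, was at 2.70, 2.97, 3.81 and 3.24 log2 CPM in gamergates and 6.66, 6.53, 6.07 and 5.96 in revertants. Workers, at 6.52, 4.90, 5.75 and 5.60, overlapped revertants and stayed above gamergates. The log2 fold change was −3.15 ± 0.24 (adjusted p = 4.53e-06, edgeR), and −2.24 ± 0.45 (adjusted p = 0.0345) with the size term. Cytochrome P450 9e2-like (LOC105186983), one of a family of oxidizing enzymes, was at 6.54, 6.54, 6.67 and 6.74 in gamergates, against 9.34, 8.51, 8.29 and 9.19 in revertants and 7.0 to 8.34 in workers. Its log2 fold change was −2.27 ± 0.22 (adjusted p = 1.38e-05, edgeR) and −2.55 (adjusted p = 0.0255) with the size term, and workers lay above all gamergates and reached the lowest revertant.

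The alpha-1 subunit of the voltage-dependent calcium channel type A (LOC105185443), the channel that admits calcium at synaptic terminals, was at 9.56, 9.57, 9.39 and 9.58 log2 CPM in gamergates, against 10.50, 10.82, 10.57 and 10.87 in revertants and 10.28 to 10.73 in workers. The fit gave a log2 change of −1.17 ± 0.10 (adjusted p = 5.69e-06, edgeR) and −0.91 ± 0.16 (adjusted p = 0.0218) with the size term. The proton channel OtopLc (LOC105186942) had −1.58 and −1.08, trace amine-associated receptor 4 (LOC105188505) −0.79 and −0.98, the cell surface proteoglycan glypican-6 (LOC105191387) −1.25 and −0.83, and solute carrier family 41 member 1 (LOC105185172), a magnesium carrier in mammals, −1.12 and −0.64. The transcription factor MEF2 (LOC105192578) had −0.89 and −0.84, the ubiquitin ligase CBL-B (LOC105191070), which ends signalling by receptor tyrosine kinases, −1.10 and −0.79, and the kinase mig-15 (LOC105185011) −0.48 and −0.62. For 2 regulators of splicing, serine/arginine-rich splicing factor 2 (LOC105188373) and transformer-2 homolog beta (LOC105186554), the values were −1.01 and −0.67, and −0.50 and −0.62.

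The remaining named genes of this set included leucine-rich repeat-containing protein 58 (LOC105188827), at 2.57, 1.96, 3.14 and 2.60 log2 CPM in gamergates, 5.46, 4.81, 5.07 and 5.08 in revertants and 3.91 to 4.42 in workers, with log2 fold changes of −2.57 and −2.74. Lipase 3 (LOC105186640) had −1.45 and −2.17. In the next genes worker libraries 2 and 4 lay above worker libraries 1 and 3. DNA fragmentation factor subunit alpha (LOC105190577), named for the inhibitor of the nuclease that cuts DNA in dying cells, was at 5.53, 5.72, 5.55 and 5.97 in gamergates and 7.30, 6.98, 6.61 and 7.14 in revertants, but at 8.06 and 7.49 in worker libraries 2 and 4 and 6.54 and 6.36 in worker libraries 1 and 3. LOC105190578, an uncharacterized protein, was at 4.76 to 5.20 in gamergates, 5.24 to 5.63 in revertants, 7.18 and 6.86 in worker libraries 2 and 4 and 5.06 and 4.83 in worker libraries 1 and 3. In the fits the log2 change was −0.47 in the 8 libraries and −2.57 ± 0.21 (adjusted p = 9.99e-05, edgeR) with the size term. Omega-conotoxin-like protein 1 (Ickin1-1) had −2.47 and −4.17, and its worker libraries 2 and 4 (7.03 and 7.25) lay above worker libraries 1 and 3 (5.79 and 5.01).

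The lower gene set also held LOC105186171, LOC105184868, LOC105182829 and LOC105189766, all listed as uncharacterized, and LOC105192453, LOC105182754 and LOC105182738, for which no name was at hand. Their log2 fold changes with the size term ranged from −1.73 for LOC105186171 to −0.54 for LOC105182738. Of the 47 genes, 46 did not overlap between gamergates and revertants (20 of 21 higher and 26 of 26 lower), where 84.9% of all higher and 85.5% of all lower genes of the 8-library fit did not, and in 37 of them (16 higher and 21 lower) all 4 gamergates also lay beyond all 4 workers in that direction. Among all genes called in the 8 libraries, gamergates lay beyond all other brains in 330 of 2466 higher genes (13.4%) and 381 of 2691 lower genes (14.2%). The fit with the size term uses the workers, so the 47 genes were partly chosen for a distance between gamergates and workers. Their larger share is no separate result. Single libraries decided many of the calls with the size term: of the 47 genes, LOC105190577 and LOC105190578 kept theirs when any of the 12 libraries was left out, and these were the 2 genes called without worker library 2, at −2.37 (adjusted p = 0.00844) and −2.40 (adjusted p = 0.00187, edgeR). With log2 total count in place of the size class, LOC105190578 was not called (−2.13, adjusted p = 0.0708, edgeR), and 33 of the 73 calls with the size class were kept. Over the libraries left out, Vg lost its call in 2 of 12 fits, CEP78, Crz, RFC1, hopscotch and LOC105188827 in 1, Krueppel homolog 1-like and cytochrome P450 9e2-like in 6, and CAPA peptides-like and Ickin1-1 in 7.

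**Figure D2:**
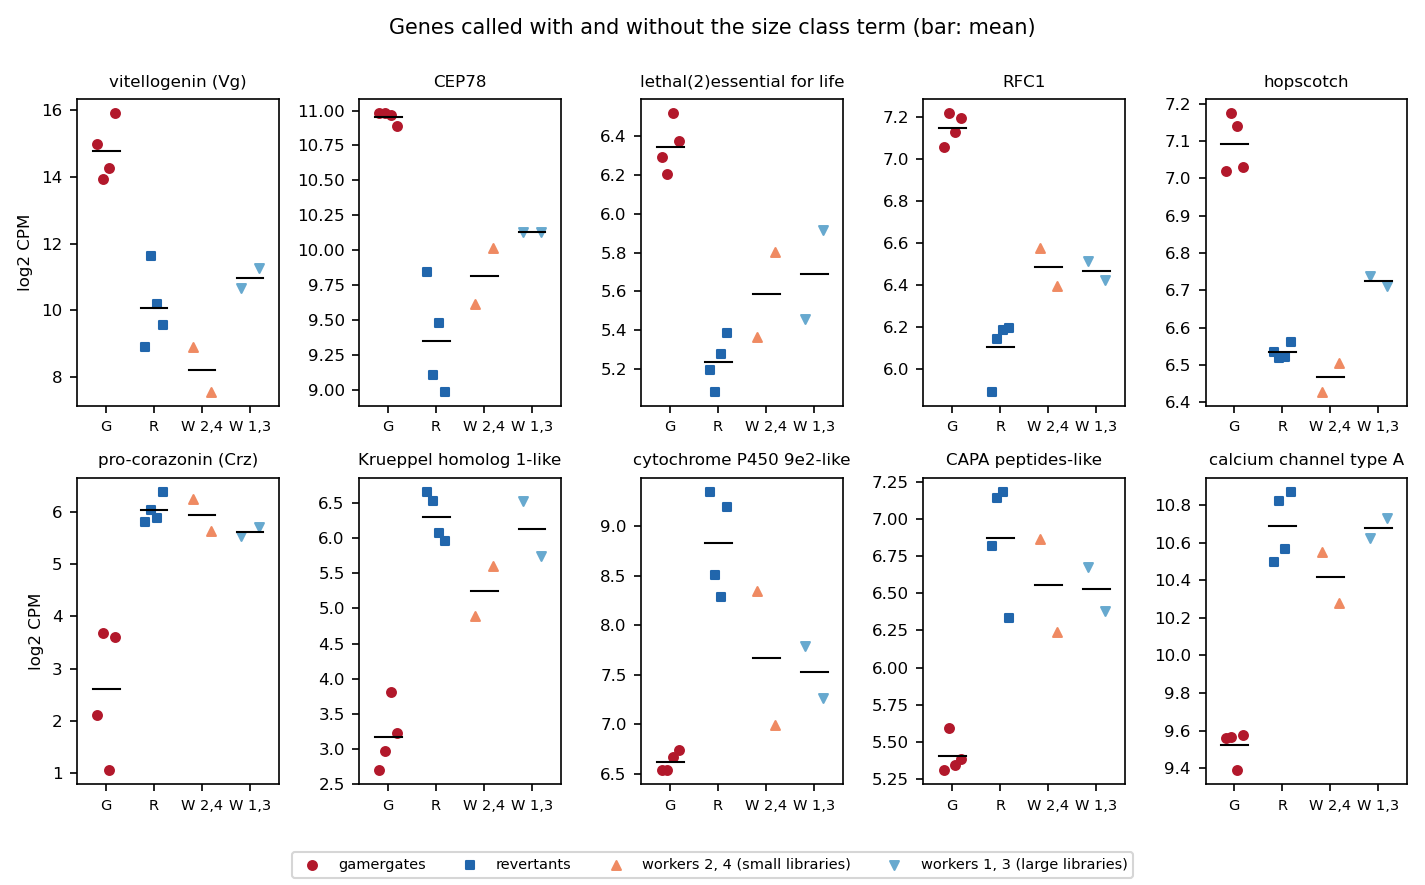
Log2 CPM of 10 genes in each brain library (points) with the mean of each group (bar), for gamergates (G), revertants (R), the smaller worker libraries 2 and 4 and the larger worker libraries 1 and 3. Vg, CEP78, lethal(2)essential for life, RFC1 and hopscotch were higher in all 4 gamergates than in any other brain, and Crz, Krueppel homolog 1-like, cytochrome P450 9e2-like, CAPA peptides-like and the calcium channel were lower.

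Several of the largest differences of the 8-library fit were in secreted proteins, whose levels also varied widely among ants of one caste. Arylphorin subunit alpha (LOC105185161), a storage protein, was at 7.68, 6.06, 7.28 and 9.81 log2 CPM in gamergates, from 118 to 1608 counts, while revertant libraries held 1, 52, 5 and 0 of its reads. This amounted to a log2 fold change of 7.42 ± 0.98 (adjusted p = 9.66e-05, edgeR). Arylphorin was not called with the size term (adjusted p = 0.547, edgeR), where its approximate standard error was 6.29. Worker libraries held at most 6 of its reads. Hexamerin (LOC105185160), another storage protein, was at 9.94, 5.17, 7.84 and 8.93 in gamergates and 2.99, 4.82, 1.65 and 0.63 in revertants, with a log2 fold change of 5.25 (adjusted p = 0.000807, edgeR). Gamergate library 2 and revertant library 2 lay closest together.

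Inhibitors of proteases showed the same order among gamergates as arylphorin. A kunitz-type serine protease inhibitor (LOC105180840) was at 5.0, 3.25, 4.23 and 6.61 log2 CPM in gamergates and 0.59 to 2.34 in revertants, and a chymotrypsin inhibitor-like gene (LOC112589399) was at 6.20, 3.97, 5.01 and 6.95 in gamergates and 1.36 to 3.90 in revertants. In Vg, arylphorin and both inhibitors, gamergate library 4 held the most and gamergate library 2 the least. The log2 fold changes of the inhibitors were 3.86 (adjusted p = 0.000669) and 3.34 (adjusted p = 0.00141, edgeR) in the 8 libraries, and neither was called with the size term.

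Among genes lower in gamergates, pheromone-binding protein Gp-9-like (LOC105186861), of the odorant-binding protein family, had the largest difference among those at 3 log2 CPM or more on average and without overlap. It was at 1.10, 3.92, 3.38 and 2.95 log2 CPM in gamergates and 10.40, 5.08, 6.84 and 10.25 in revertants, and revertant libraries 1 and 4 stood far above the other two. Its log2 fold change was −6.33 ± 1.25 (adjusted p = 0.00134, edgeR), and workers of both sizes were at 3.05 to 4.91, near gamergates and below all revertants. The same libraries were the highest for the carcinine transporter (LOC105181737), at 7.71 and 8.44 against 4.89 and 4.96 in revertant libraries 2 and 3 and 2.92 to 4.11 in gamergates, and for LOC105184161, with no name at hand, at 4.46 and 9.65 against 2.02 and 2.03. The summed level of 4 cuticle and epidermis markers was also highest there, at 293 and 476 CPM in revertant libraries 1 and 4, 85.0 and 95.9 CPM in revertant libraries 2 and 3, 31.7 to 48.4 CPM in gamergates and 56.9 to 79.0 CPM in workers. The part of these markers in the differences was not tested. Neither the carcinine transporter nor LOC105184161 was called with the size term, in which LOC105184161 did not pass the filter on low counts. LOC105184161 also lost its call in the 8 libraries when any 1 gamergate library was left out (adjusted p from 0.0686 to 0.0742, edgeR).

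Lists of genes were drawn from protein names, taken mainly from the study's lists of differentially expressed genes in brain, fat body and ovary. Their members were thus preselected for differences, in part in these same libraries, and do not stand for whole families. Yolk and storage proteins were the list with the largest median difference. Of 6 tested members of 9, 3 were higher (Vg, arylphorin and hexamerin) and 1 lower, and 1 was called higher with the size term (Vg). The lower member was apolipoprotein D (LOC105185670), a lipid carrier, at −1.22 in the 8 libraries, −1.13 between the worker libraries and −0.067 with the size term. The other tested members, hexamerin LOC105182807 and apolipoprotein D LOC105187060, were not called. The summed level of the list was 16239 to 63196 CPM in gamergates, 1923 to 4791 in revertants, 772 to 1224 in worker libraries 2 and 4 and 3136 to 3942 in worker libraries 1 and 3. Vitellogenin and the storage proteins are made mainly in the fat body, and fat body libraries were not analysed here. This does not cover the apolipoprotein D genes, lipid carriers that the list took in by name. The part of fat body tissue in these sums was not tested.

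In other genes the worker libraries differed in the same direction as the castes and by at least as much in mean log2 CPM. The genes of this paragraph and the next were chosen for this. Small or reversed values with the size term therefore follow from the choice. LOC112589758, an uncharacterized protein, was at 8.15, 8.10, 8.10 and 7.99 log2 CPM in gamergates, 6.22, 5.47, 6.21 and 6.33 in revertants, 7.90 and 8.30 in worker libraries 2 and 4 and 5.99 and 6.11 in worker libraries 1 and 3. Gamergates and revertants did not overlap, and its log2 fold change of 2.02 ± 0.16 (adjusted p = 5.03e-06, edgeR) became −0.049 with the size term, beside a worker difference of 2.10. Maltase 1 (LOC105180924), which splits sugars, was at 1.10, 1.73, 2.05 and 2.31 in gamergates, 4.48, 4.30, 4.41 and 4.77 in revertants, 0.77 and 1.93 in worker libraries 2 and 4 and 4.67 and 4.51 in worker libraries 1 and 3. The fitted log2 change was −2.79 (adjusted p = 8.49e-06, edgeR) in the 8 libraries and 0.61 with the size term, which was not called.

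F-box/LRR-repeat protein 14 (LOC105181103) had −2.12 in the 8 libraries, −2.16 between the worker libraries and 0.059 with the size term, and transmembrane protein 223 (LOC105184602) had 1.54, 2.16 and −0.60. LOC105185997 (−2.60, −2.75 and 0.17), a fibrous sheath CABYR-binding protein-like gene (LOC112590725, −2.10, −3.14 and 1.07) and zinc finger protein 26-like (LOC105181210, −1.81, −1.95 and 0.17) behaved alike. The muscle protein titin (LOC105184337) was at 8.15, 6.42, 10.42 and 7.46 log2 CPM in gamergates, 7.29, 5.07, 5.93 and 4.73 in revertants and 8.28 and 10.44 in worker libraries 2 and 4, against 5.18 and 6.31 in worker libraries 1 and 3. Castes overlapped, its log2 fold change of 2.81 lost its call without gamergate library 3 (1.43), and it was −1.10 with the size term. The genes LOC105190750 (2.05 in the 8 libraries) and LOC105185413 (1.93), with no name at hand, were also highest in gamergate library 3 and worker library 4, and lost their calls without gamergate library 3.

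**Figure D3:**
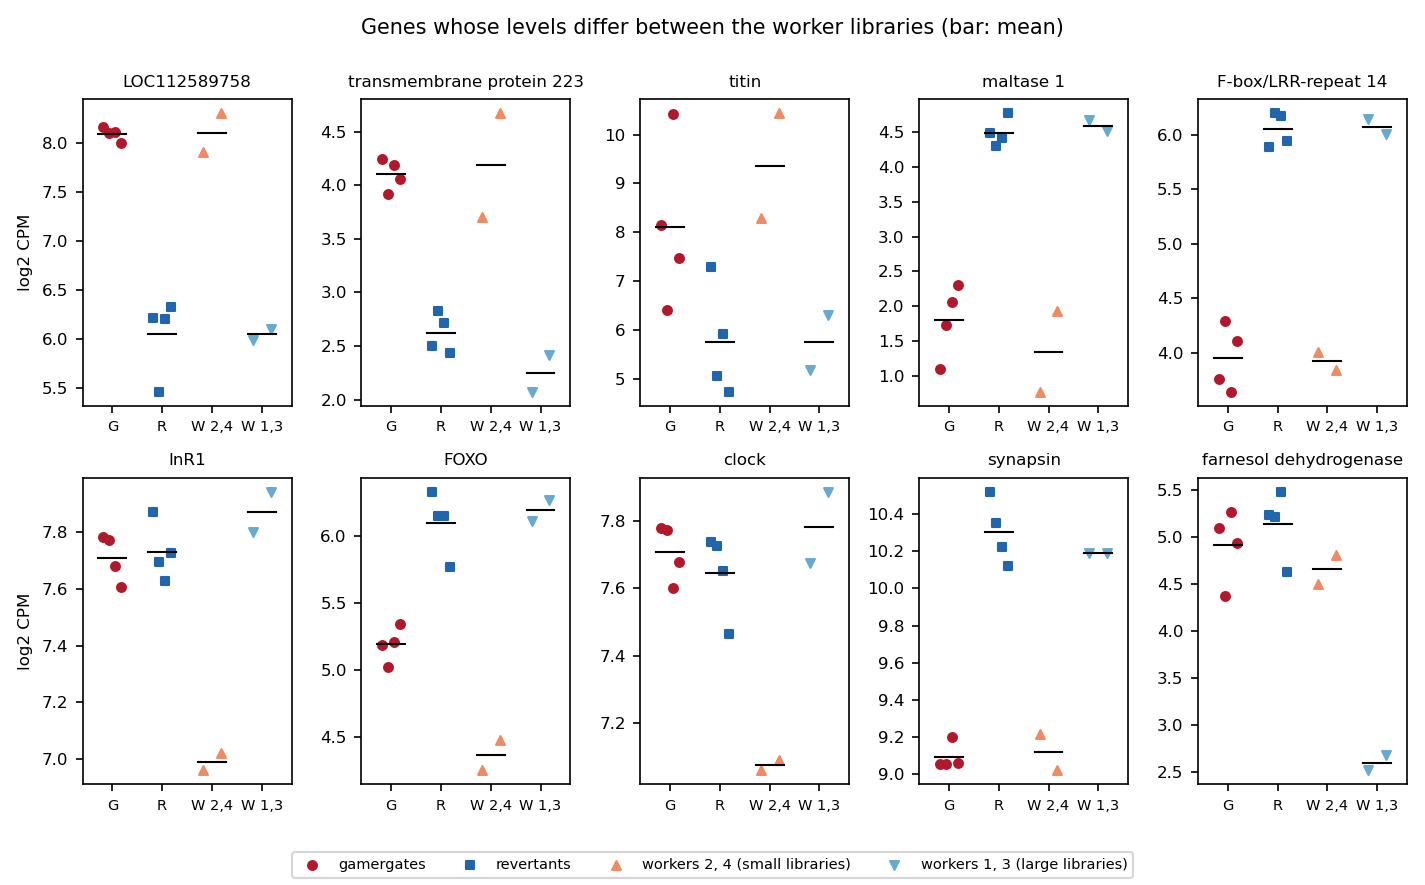
Log2 CPM of 10 genes in each brain library (points) with the mean of each group (bar), for gamergates (G), revertants (R), the smaller worker libraries 2 and 4 and the larger worker libraries 1 and 3. LOC112589758, transmembrane protein 223, titin, maltase 1, F-box/LRR-repeat protein 14, FOXO and synapsin differed between worker libraries in the direction in which gamergates differed from revertants, and InR1, clock and farnesol dehydrogenase differed between worker libraries but not between gamergates and revertants.

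Some genes were called with the size term although gamergates and revertants were level. Insulin receptor 1 (InR1, LOC105185958) was at 7.78, 7.77, 7.68 and 7.61 log2 CPM in gamergates, 7.87, 7.69, 7.63 and 7.73 in revertants, 6.96 and 7.02 in worker libraries 2 and 4 and 7.80 and 7.94 in worker libraries 1 and 3. The castes overlapped and the log2 fold change was −0.012 ± 0.07 (adjusted p = 0.898, edgeR) in the 8 libraries, but 0.87 (adjusted p = 0.00754) with the size term, which added back the worker difference of −0.86. The clock gene product CLOCK (LOC105182101), a transcription factor of the circadian clock, had 0.067 (adjusted p = 0.469) and 0.77 (adjusted p = 0.0219, edgeR), and with library size alone it was called in the 8 libraries too (0.24, adjusted p = 0.0189). Farnesol dehydrogenase (LOC105191771), an enzyme on the way to juvenile hormone, was at 4.38 to 5.27 in gamergates, 4.63 to 5.49 in revertants, 4.50 and 4.82 in worker libraries 2 and 4 and 2.52 and 2.68 in worker libraries 1 and 3, and had −0.23 and −2.39. In all, 16 of the 41 higher genes and 6 of the 32 lower genes of the fit with the size term were not called in the 8 libraries, and 4 of the 41 were called lower there.

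The insulin pathway moved in parts. Among ligands, the insulin-like peptide Ins (LOC105188195, 1.01, adjusted p = 0.0133, edgeR) was higher and the insulin-like growth factor IGF (LOC105186969, −3.38, adjusted p = 0.00085) lower in gamergates in the 8 libraries, and neither was called with the size term (1.35, adjusted p = 0.261, and −3.09, adjusted p = 0.189). IGF was at 1.69, 1.96, 1.05 and −0.97 log2 CPM in gamergates, the last with 0 counts, and at 5.26, 4.28, 3.88 and 3.33 in revertants. The receptor InR2 (LOC105183944) was lower in the 8 libraries (−0.53) and not called with the size term (0.39), beside a worker difference of −0.90. Imp-L2 (LOC105183446), a secreted protein that binds insulin-like peptides, was at 4.33, 4.56, 4.73 and 4.44 in gamergates, 5.41, 5.76, 5.74 and 6.19 in revertants and 5.58 to 6.07 in workers of both sizes, so that gamergates lay below all other brains. The fit gave a log2 change of −1.28 ± 0.17 (adjusted p = 0.000116, edgeR) and −0.97 (adjusted p = 0.101) with the size term.

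Inside the cell, the regulatory subunit of phosphatidylinositol 3-kinase (LOC105192434, −0.94), the kinase PDK1 (LOC105186906, −1.23) and the transcription factor FOXO (LOC105183293, −0.92) were lower in gamergates in the 8 libraries. The worker differences were −1.01, −1.35 and −1.82, and with the size term the values were 0.084, 0.15 and 0.92, none of them called. FOXO was at 5.03 to 5.34 log2 CPM in gamergates and 5.77 to 6.33 in revertants, with worker libraries 2 and 4 (4.25 and 4.48) below all gamergates and worker libraries 1 and 3 (6.11 and 6.26) among the revertants. Of 13 tested members of the insulin list, 2 were higher and 7 lower in the 8 libraries, 1 and 6 between worker libraries, and 1 and 0 with the size term (InR1). Among the 2370 tested genes with a name other than uncharacterized, 48.7% were higher and 39.9% lower between the castes, and 33.8% were higher and 31.9% lower between worker libraries. These names came mainly from the study's lists of differentially expressed genes. Of the 6617 tested genes without such a name, 19.8% were higher and 26.4% lower between the castes. The lower share of the insulin list, 53.8%, was not far from that of named genes, but its higher share, 15.4%, was below theirs. The EGF ligand Vein (LOC105181399) had −0.94 in the 8 libraries, −1.51 between worker libraries and 0.59 with the size term, and the receptor Egfr (LOC105191569) had −0.75, −0.35 and −0.37.

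Neuropeptide precursors named in the study's lists were lower in gamergates. Of 16 tested, 15 were lower and 1 (Ins) higher in the 8 libraries, beside 39.9% lower and 48.7% higher among all named genes tested, and 9 of the 16 were also lower in worker libraries 2 and 4. With the size term 2 were lower, Crz and CAPA peptides-like. SIFamide-related peptide (LOC105187830), from a few neurosecretory cells in Drosophila, was at 4.16, 3.87, 4.15 and 3.91 log2 CPM in gamergates, against 5.59, 5.43, 5.76 and 5.75 in revertants, but worker libraries 2 and 4 (4.87 and 4.60) also lay below worker libraries 1 and 3 (5.88 and 5.90). In the fits the log2 change was −1.63 in the 8 libraries, −1.13 between worker libraries and −0.48 with the size term. PBAN-type neuropeptides (LOC105191759), precursors of peptides that govern pheromone synthesis in moths, were at 2.62 to 3.20 in gamergates, 4.44 to 5.55 in revertants and 2.49 to 4.16 in workers, with −2.15 (adjusted p = 0.000131, edgeR) and −2.12 (adjusted p = 0.15) with the size term. Ion transport peptide (LOC105181971) had −1.64, −2.16 between worker libraries and 0.54 with the size term, and short neuropeptide F (LOC105182308) had −0.90, −0.81 and −0.072.

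Among 6 tested neuropeptide receptors 4 were lower, beside 39.9% of named genes. Somatostatin receptor type 2 (LOC105186685) was at 2.31 to 3.25 log2 CPM in gamergates and 4.71 to 5.90 in revertants, with 5.88, 4.81, 5.74 and 3.78 in worker libraries 1 to 4. Its log2 fold change was −2.82 in the 8 libraries, −1.41 between worker libraries and −1.39 (adjusted p = 0.208, edgeR) with the size term. All 12 tested genes listed for biogenic amines (receptors, transporters and enzymes for dopamine, serotonin, octopamine and tyramine) were lower in gamergates, beside 39.9% of named genes. Genes of this kind that the study's lists do not name were not counted. With upper quartile scaling 11 of the 12 were called lower and with library size alone 10. Of the 12 genes, 7 were also lower in worker libraries 2 and 4, and none was called with the size term (4 had an unadjusted p under 0.05). Dopamine receptor 1 (LOC105182732) came nearest, at 7.0, 6.82, 6.53 and 6.72 in gamergates, 8.26, 8.23, 7.88 and 8.18 in revertants, 7.28 and 7.21 in worker libraries 2 and 4 and 7.95 and 7.79 in worker libraries 1 and 3. Between the castes the log2 fold change was −1.36 ± 0.11, −0.60 between worker libraries and −0.74 (adjusted p = 0.0634, edgeR) with the size term. Tyramine receptor 1 (LOC105190171) had −1.56, −1.17 and −0.37, and 5-hydroxytryptamine receptor 2A (LOC105184613) had −0.40, 0.19 and −0.57.

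Most of the named genes of synapses and excitability were lower in gamergates, and most were also lower in worker libraries 2 and 4. Of 14 receptors for fast transmitters 12 were lower in gamergates, and 12 were lower in worker libraries 2 and 4, where 39.9% and 31.9% of named genes were lower. For 13 voltage-gated channels these counts were 11 and 9 and for 13 genes of synaptic vesicles and release 11 and 9, and the calcium channel LOC105185443 was the 1 gene of these lists called with the size term. Synapsin (LOC105185002), a protein of synaptic vesicles, was at 9.05, 9.06, 9.20 and 9.06 log2 CPM in gamergates, 10.52, 10.35, 10.22 and 10.12 in revertants, 9.22 and 9.02 in worker libraries 2 and 4 and 10.19 in both worker libraries 1 and 3. The fitted log2 change was −1.21 in the 8 libraries, −1.04 between worker libraries and −0.15 with the size term. The potassium channel Shal (LOC105191888) had −1.27, −1.03 and −0.22, and acetylcholine receptor subunit alpha-like 1 (LOC105191783) had −1.32, −0.73 and −0.56.

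Markers of neurons and glia moved with the same libraries. The summed level of 5 neuron markers was 1734 to 1961 CPM in gamergates, 2912 to 3790 in revertants, 1781 to 1939 in worker libraries 2 and 4 and 3150 to 3157 in worker libraries 1 and 3. For 3 glial markers the sums were 1317 to 1572, 2279 to 3057, 1528 to 1627 and 2273 to 2799. The optic lobes were not part of the samples, but 5 genes listed by name as markers of photoreceptors and optic lobe were detected. Their sums moved alike, at 931 to 1008 CPM in gamergates and 1461 to 2001 in revertants. In worker libraries 2 and 4 the sums were 950 to 1016 CPM, and in worker libraries 1 and 3 they were 1653 to 1752 CPM. Gene by gene, 3 of the 5 were called lower in gamergates and 2 in worker libraries 2 and 4. These shares stand beside 39.9% and 31.9% of named genes. All 5 neuron markers and all 3 glial markers were called lower in both comparisons. The transcription factor prospero (LOC105192485), used here as a marker of glia, had −0.87 in the 8 libraries, −0.77 between worker libraries and −0.082 with the size term. Muscle markers summed to 384 to 944 CPM in gamergates, 462 to 528 in revertants, 532 to 1070 in worker libraries 2 and 4 and 555 to 618 in worker libraries 1 and 3, with gamergate library 3 and worker library 4 the highest. Of 5 tested muscle markers 1 was higher in gamergates, troponin T (LOC105181245, 2.10, and −0.71 with the size term), and 5 in worker libraries 2 and 4. In these bulk samples, fewer cells of a type and less RNA per cell cannot be told apart, and the part of these markers in the other results was not tested.

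**Figure D4:**
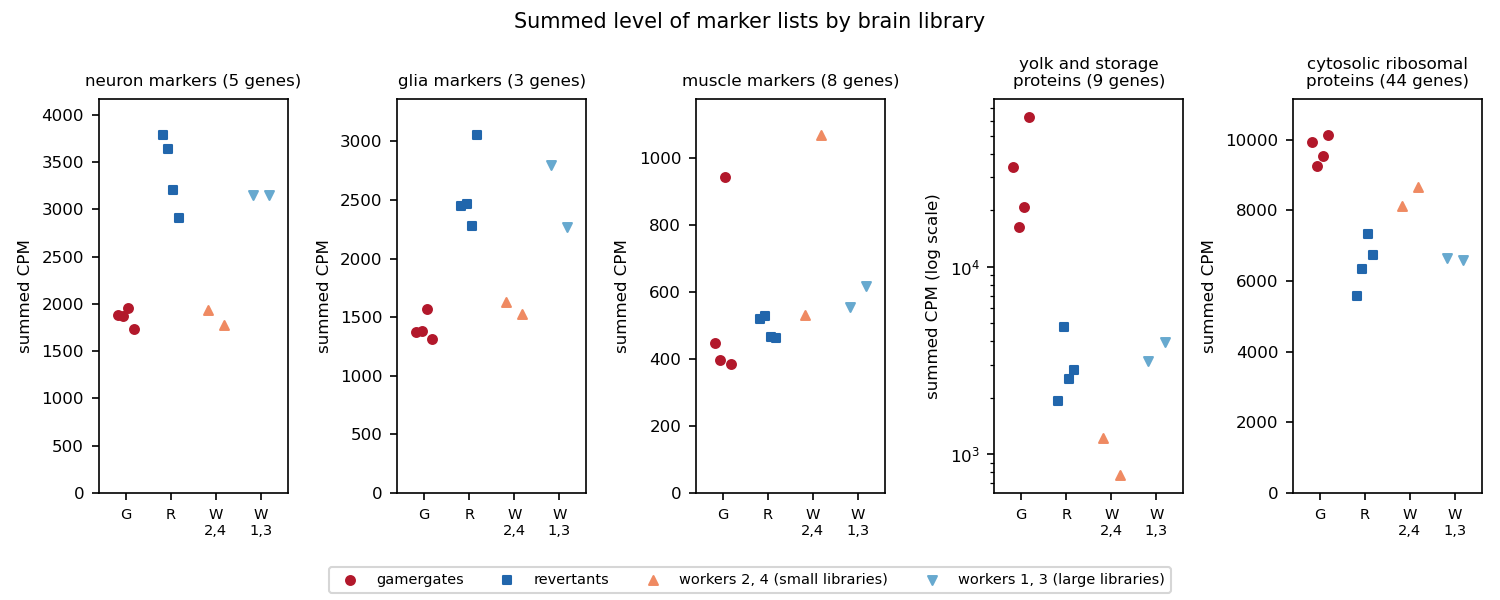
Summed CPM of 5 lists of genes in each brain library, for gamergates (G), revertants (R), the smaller worker libraries 2 and 4 and the larger worker libraries 1 and 3, on linear axes from 0 except for yolk and storage proteins (log axis). Neuron sums of gamergates were level with worker libraries 2 and 4. Glia sums of gamergates (1317 to 1572 CPM) were mostly below those of worker libraries 2 and 4 (1528 to 1627 CPM). Both sums were below all revertants, and yolk and storage proteins were higher in gamergates (16239 to 63196 CPM) than in any other brain.

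Ribosomal proteins named in the study's lists were higher in gamergates. Of 42 tested cytosolic ribosomal proteins 38 were higher and 1 lower in the 8 libraries (48.7% and 39.9% of named genes), 24 were higher and 2 lower in worker libraries 2 and 4 (33.8% and 31.9% of named genes), and 1 was called with the size term (40S ribosomal protein S5, LOC105190891, 0.72, adjusted p = 0.0348, edgeR). Their summed level was 9256 to 10140 CPM in gamergates, 5588 to 7329 in revertants, 8137 to 8664 in worker libraries 2 and 4 and 6600 to 6658 in worker libraries 1 and 3. 40S ribosomal protein S3 (LOC105182871) was at 9.53, 9.44, 9.48 and 9.62 log2 CPM in gamergates, 8.64, 8.81, 9.0 and 8.86 in revertants and 8.87 to 9.08 in workers. The fit gave a log2 change of 0.70 ± 0.08 (adjusted p = 5.3e-05, edgeR) and 0.52 (adjusted p = 0.0724) with the size term. Of 17 chaperones 14 were higher and 1 lower, against the same shares of named genes, and 8 were higher and 1 lower in worker libraries 2 and 4. The lower gene was heat shock 70 kDa protein cognate 4 (LOC105181885), at −0.74, and the small heat shock protein LOC105180829 was the 1 called with the size term.

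Of 14 tested genes of the mitochondrial respiratory chain 4 were higher and 9 lower in gamergates, beside 48.7% and 39.9% of named genes, and none was called with the size term (9 had an unadjusted p under 0.05, all of them at negative values). ATP synthase lipid-binding protein (LOC105186885), of the proton-carrying ring, was at 5.82, 5.80, 5.72 and 5.92 log2 CPM in gamergates and 7.39, 7.47, 7.45 and 7.36 in revertants, and its log2 fold change of −1.61 ± 0.07 (adjusted p = 1.01e-06, edgeR) was −1.03 between worker libraries and −0.56 (adjusted p = 0.0634) with the size term. ATP synthase subunits beta (LOC105189664) and gamma (LOC105180527) had −0.83 and −0.84, and −0.38 and −0.51 with the size term. Of 8 genes of glycolysis and trehalose metabolism 7 were lower (39.9% of named genes), of which facilitated trehalose transporters Tret1-2 homolog (LOC105184288) and Tret1 (LOC105189530), carriers of the main blood sugar of insects, had −1.30 and −2.10. Tret1-2 homolog was at 4.33 to 4.76 in gamergates, 5.59 to 6.06 in revertants and 5.54 to 6.16 in workers of both sizes, and had −0.98 (adjusted p = 0.0763, edgeR) with the size term.

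Of 9 tested genes of juvenile hormone and ecdysteroid signalling 6 were lower and 1 higher in gamergates in the 8 libraries, beside 39.9% and 48.7% of named genes, 5 were lower and 2 higher in worker libraries 2 and 4, and 2 were lower with the size term, Krueppel homolog 1-like and farnesol dehydrogenase. The nuclear receptor HR38 (LOC105185653), a relative of the vertebrate NR4A receptors, was at 4.90, 4.66, 4.61 and 5.04 log2 CPM in gamergates, 6.65, 6.16, 6.31 and 5.87 in revertants and 6.06 to 6.55 in workers. Gamergates lay below all other brains, and the log2 fold change was −1.48 ± 0.17 (adjusted p = 4.44e-05, edgeR) and −1.18 (adjusted p = 0.0592) with the size term. The ecdysone-induced protein 74EF (LOC105182180), by contrast, had −1.22 in the 8 libraries, −1.20 between worker libraries and −0.00069 with the size term.

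All 4 tested odorant-binding and chemosensory proteins were lower in gamergates in the 8 libraries, beside 39.9% of named genes. With library size alone 2 of 4 were. None was called with the size term, and 1 was higher in worker libraries 2 and 4. The summed level of this list was 1728 and 1645 CPM in revertant libraries 1 and 4 but 471 and 550 CPM in revertant libraries 2 and 3. It was 281 to 296 CPM in gamergates and 374 to 429 CPM in workers. Of 11 immune genes 9 were lower, beside 39.9% of named genes, and 5 were lower and 2 higher in worker libraries 2 and 4. Peptidoglycan-recognition protein SC2 (LOC105185773), which binds bacterial cell walls, was at 2.57, 2.86, 2.96 and 3.54 log2 CPM in gamergates, 7.18, 3.69, 4.57 and 6.35 in revertants and 3.10 to 5.78 in workers. Its log2 fold change was −3.06 ± 0.82 (adjusted p = 0.0084, edgeR) and −5.15 (adjusted p = 0.0787) with the size term, and revertant libraries 1 and 4, with the most cuticle and epidermis markers, were again the highest. Invertebrate-type lysozyme 3 (LOC105191919) had −2.25 (adjusted p = 0.00723) and −3.13 (adjusted p = 0.143, edgeR). Of 23 histone and DNA modifying enzymes 13 were higher and 7 lower (56.5% and 30.4%), near the 48.7% and 39.9% of named genes, and none was called with the size term. Of 25 cytochrome P450 genes 4 (16%) were higher and 11 (44%) lower, beside 48.7% and 39.9% of named genes. Their median fitted log2 fold change was −0.16 with TMM and 0.0030 with library size alone. The summed level of the cytochrome P450 list was also highest in revertant libraries 1 and 4, at 3579 and 3378 CPM. It was 1661 and 1853 CPM in revertant libraries 2 and 3 and 1099 to 1581 CPM in gamergates.

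**Figure D5:**
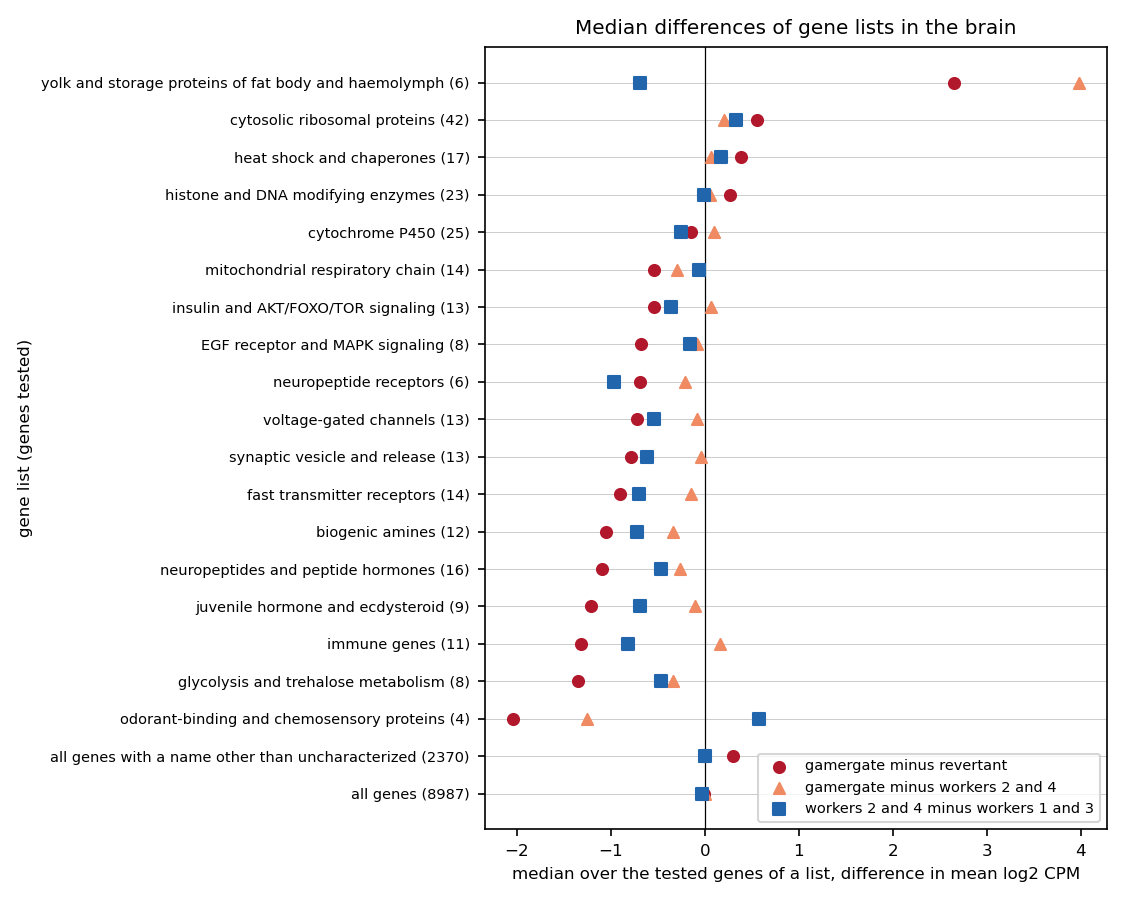
Median over the tested genes of 18 gene lists, of all named genes and of all genes, of 3 differences in mean log2 CPM: gamergate minus revertant (circles), gamergate minus worker libraries 2 and 4 (triangles) and worker libraries 2 and 4 minus worker libraries 1 and 3 (squares). For neuropeptides the medians were −1.10, −0.27 and −0.47, for biogenic amines −1.05, −0.34 and −0.72, for ribosomal proteins 0.56, 0.20 and 0.33, and for yolk and storage proteins 2.65, 3.98 and −0.69.

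Within a size class, gamergates could be set only against workers, and so could revertants. Against worker libraries 2 and 4, 218 genes were higher and 183 lower in gamergates, 4.62% of 8677 tested (2.51% higher and 2.11% lower), or 131 and 344 with library size alone. Gamergates enter this comparison and the one with revertants alike, so they are not independent. In it Vg had a log2 fold change of 6.59, Crz −3.10, CEP78 1.12, Krueppel homolog 1-like −2.10, CAPA peptides-like −1.19, Imp-L2 −1.13, HR38 −1.30, Tret1-2 homolog −1.25 and Ins 1.79, all called (adjusted p from 6.73e-05 to 0.00309, edgeR). Synapsin (−0.028), LOC112589758 (−0.025) and F-box/LRR-repeat protein 14 (0.043) were not. The counts were 63 and 66 without worker library 2, 66 and 90 without worker library 4 and 109 and 108 without gamergate library 1. Against worker libraries 1 and 3, 0 genes were called higher and 1 called lower in revertants, 0.0103% of 9726 tested, with 781 genes at an unadjusted p under 0.05. The 1 gene was LOC105185090, an uncharacterized protein at −6.26, named after its value was seen. Without worker library 1 there were 2 lower genes, without revertant library 2 there were 4 higher ones and without revertant library 4 there was 1. For the genes above this comparison gave −0.57 for Vg, 0.43 for Crz, −0.74 for CEP78, 0.15 for Krueppel homolog 1-like and 0.38 for CAPA peptides-like.

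The ovaries of gamergates and revertants gave another readout of the 47 genes, from other libraries. There 2653 genes were higher and 2680 lower in gamergates, 57.8% of 9228 tested (28.7% higher and 29% lower). Ovary libraries held 5354569 to 23882325 counts in gamergates and 1663266 to 7391217 in revertants. Gamergate libraries were thus mostly the larger ones in the ovary, the reverse of the brain. The part of library size in the ovary calls was not tested. Of the 21 genes higher in both brain fits, 20 were tested in the ovary, 2 were higher there and 7 lower. Of the 26 lower genes, 21 were tested, 8 were lower there and 3 higher, so most of the brain calls were not repeated. Tissue and the order of library sizes cannot be told apart in this. Krueppel homolog 1-like was lower in the ovary as well (−3.68, adjusted p = 0.000168, edgeR), and hopscotch was higher (0.50, adjusted p = 0.0134). CEP78 went the other way, at −4.15 (adjusted p = 0.000345), and so did lipase 3, at 4.65 (adjusted p = 0.00394, edgeR).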

How the data were processed

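The deposited table holds raw counts of reads per gene, which the authors made from polyA RNA of single ants by trimming and aligning to the Harpegnathos genome version 8.5; the submitters' processing notes name STAR 2.5.3a. The counting program, strand setting and handling of reads with several matches are not given in the sources used here, so genes with near-identical copies are uncertain. Every column was matched to a sample (0 unmatched), and 12633 of 12654 gene IDs were found in RefSeq. Protein names came mainly from the study's lists of differentially expressed genes in brain, fat body and ovary. In all, 2573 genes had a name other than uncharacterized. Named genes and list members were thus preselected for differences in these data.

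Counts were tested with edgeR 4.0.16 in R 4.3.3 (TMM scaling, filterByExpr, quasi-likelihood test, Benjamini-Hochberg adjusted p under 0.05). The fits were gamergates against revertants in 8 libraries, all 12 brain libraries with caste and size class (limit 3500000 counts), worker libraries 2 and 4 against 1 and 3, each caste against workers of its size class, and ovaries. Alternatives were other scalings, filters, thresholds, DESeq2 1.42.0, thinned counts, a replicate block and single libraries left out. Floors cover counting error only.

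Genes were named by rule, at an average of at least 3 log2 CPM: up to 12 per direction called in both fits without overlap, by size-term change; up to 5 per direction by change in the 8-library fit, without overlap; up to 5 per direction whose worker difference was at least as large as the caste difference; the genes with symbols in the study; and up to 4 per gene list, lowest p with the size term first. Further members of these sets were named after their values were seen. The members and lists were chosen with earlier results of these data known. The scripts were tested on simulated data.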

Additional observations from a re-analysis of the deposited data

Results flagged for a closer look

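In 220 groups of 4 libraries, 1 library was far from the other 3 in 13 (its gap to the nearest library over the range of the group was above Dixon's critical value). Chance alone gives about 1 in 20. The ratio was 0.856 for CEP78 (LOC105188568), lowest in gamergate library 4, 0.924 for the calcium channel type A (LOC105185443) and 0.944 for synapsin (LOC105185002), lowest and highest in gamergate library 3, and 0.890 for Vein (LOC105181399), highest in gamergate library 2. In gamergate library 1 the lowest values were those of Egfr (LOC105191569, 0.906), acetylcholine receptor subunit alpha-like 1 (LOC105191783, 0.915) and facilitated trehalose transporter Tret1 (LOC105189530, 0.951). Among revertants, RFC1 (LOC105188755, 0.837) was lowest and synaptotagmin-14 (LOC105183434, 0.862) highest in library 1, and neprilysin-4 (LOC105191206, 0.835) was highest and LOC112589758 (0.861) lowest in library 2. In revertant library 4 glutamine synthetase 2 (LOC105186780, 0.888) was highest and centrosomin (LOC105186465, 0.862) lowest.

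Of 93 genes examined in both tissues, 16 had gamergates and revertants apart in opposite directions in brain and ovary, without overlap in either. That is 17.2%, beside 550 of 8354 (6.58%) of all genes tested in both tissues, and the 93 genes were named mostly for their difference in brain. The difference between tissues was not tested. Ovary libraries held 5354569 to 23882325 counts in gamergates and 1663266 to 7391217 in revertants, with overlap. Gamergate libraries were mostly the larger ones there and the smaller ones in the brain, so tissue and library size cannot be told apart. The brain difference minus the ovary difference in mean log2 CPM was 5.05 for CEP78, 3.86 for LOC112589758, 1.99 for neprilysin-4, 1.99 for adenosine kinase 2 (LOC105189575), 1.54 for 40S ribosomal protein S3 (LOC105182871) and 1.52 for cytoplasmic aconitate hydratase (LOC105188943), all higher in gamergate brains. It was −7.64 for IGF (LOC105186969), −7.15 for lipase 3 (LOC105186640), −4.57 for the proton channel OtopLc (LOC105186942), −4.52 for potassium channel subfamily H member 8 (LOC105188803), −3.67 for Tret1 (LOC105189530) and −3.51 for Imp-L2 (LOC105183446), all lower in gamergate brains. Smaller values were −2.69 for ATP synthase lipid-binding protein (LOC105186885), −2.05 for serine/arginine-rich splicing factor 2 (LOC105188373), −1.51 for ATP synthase subunit gamma (LOC105180527) and −1.04 for LOC105190578.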

How the results depend on the processing

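The 8-library counts (2466 higher and 2691 lower) stayed within 1.5 times under the alternatives tried except a minimum change of 1 log2 unit (297 and 658), and leaving out single libraries gave 2237 to 2479 and 2350 to 2550. The counts with the size term (41 and 32) moved more: 97 lower with library size alone, 104 and 121 with DESeq2, 108 and 116 with edgeR's likelihood ratio test, 12 and 8 at an adjusted p under 0.01, 12 and 18 with that minimum, and 21 higher with log2 total count as a numeric term. Leaving out single libraries gave 0 to 84 higher and 2 to 81 lower. Whether shared replicate numbers pair the libraries is not given in the sources used here. Deviations from caste means correlated at −0.0414 to −0.00461 for equal numbers and −0.119 to 0.113 for others. These values cannot decide whether libraries were handled in pairs. With the replicate block the counts were 7 and 13 with the size term and 2399 and 2678 in the 8 libraries. The worker difference gave 3164 and 1380 with library size alone. Gamergates against worker libraries 2 and 4 gave 131 and 344 with library size alone, 124 and 120 from a fit of 12 libraries in 4 groups, and 63 to 201 and 66 to 180 with single libraries left out. Revertants against worker libraries 1 and 3 gave 2 higher genes with no filter, 6 and 3 from the fit in 4 groups, and 0 to 4 and 1 to 2 with single libraries left out. The correlation was 0.753 over genes at 5 log2 CPM or more. Hexamerin (LOC105185160) with the size term, not called, ranged from −0.11 without worker library 3 to 9.11 without worker library 2. Leaving out single libraries was added for the comparisons within a size class after the data were seen. The causes of these changes were not tested. The small gamergate libraries limit genes under 1.67 to 1.81 CPM.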
